A study of Mus musculus with 9 samples.

Results

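Immediate early genes are transcribed within minutes of a stimulus without waiting for new protein, and 41 of them were followed here through the cardiac endothelium of hypertensive and normotensive mice. All 41 were picked by symbol from a table of 18094 genes, and all 41 passed the low-count filter that left 15277 genes for testing. RNA was sequenced from endothelial cells bound to magnetic beads from fresh heart tissue, in 3 groups of 3 libraries: BPH/2J aged 22 weeks, BPH/2J aged 4 weeks and BPN/3J aged 22 weeks. BPH/2J mice are an inbred strain selected for raised blood pressure, and the BPN/3J strain, with normal pressure, was selected in parallel. The labels give no treatment and no engineered allele for any group, and no sex. The comparisons ask what differs with strain at equal age, what differs with age within BPH/2J, and what differs between young BPH/2J and BPN/3J. Each blood pressure state is a single strain, so blood pressure and strain cannot be told apart. The 4-week BPH/2J and BPN/3J libraries differ in strain and in age at once. The labels number the libraries without tying them to separate animals, and p-values then measure the spread between libraries, which may be technical.

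As background, growth factors, shear stress, calcium and cell stress reach these genes through MAP kinases, which act on ternary complex factors bound beside serum response factor at CArG boxes, and through CREB at cAMP response elements. The first products are transcription factors of the AP-1, EGR and NR4A families, which then act on later genes. Other products, such as dual-specificity phosphatases, inhibitors of NF-kappaB and mRNA decay factors, switch the response off. The transcripts are short-lived, in part because AU-rich elements in their 3′ ends recruit decay factors such as tristetraprolin, the product of Zfp36.

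The letters below show these control elements in the members on which the results turn. The nonamer TTATTTATT, the core of an AU-rich element, was present in the annotated 3′UTR of 13 of 41 members (31.7%), against 7% of the 13578 tested protein-coding genes (longest coding transcript, GENCODE M21, build GRCm38). Among genes with a 3′UTR of at least 500 and under 2000 bases, it was present in 10 of 27 members (37%) and in 6.61% of 5913 genes. The members were also compact genes, with a median span of 4984 bases and 3 exons, against 24472 bases and 9 exons over all tested protein-coding genes. Sites are shown 5′ to 3′ in the mRNA sense for members lower in BPH/2J, with the nonamer in capitals.
Csrnp1, 155 bases after the stop codon: cactctgaatTTATTTATTtttttatgtt
Dusp1, 103 bases after the stop codon: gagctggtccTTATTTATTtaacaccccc
Fos, 655 bases after the stop codon: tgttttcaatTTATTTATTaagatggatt
Maff, 933 bases after the stop codon: ttccacactcTTATTTATTgcacgaatct
Nfkbia, 296 bases after the stop codon: ggaccacgttTTATTTATTgtgcttttga
Zfp36, 589 bases after the stop codon: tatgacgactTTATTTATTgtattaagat
The nonamer was present in 10 of the 28 members that were lower in 22-week BPH/2J than in BPN/3J (35.7%) and in 3 of the other 13 (23.1%). Srf, Pim1 and Zfp36l1 were those 3, and Cebpd, Fosl2, Ppp1r15a and Tnfaip3 were the further lower members that held it.

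Promoter windows of 300 bases (250 before to 50 after the start; RefSeq, build GRCm38.p6) were matched for 35 of 41 members and 10682 tested genes, and were searched on both strands. Cebpd, Egr1, Egr3, Ier2, Myc and Sik1 had no matched window and were not searched. Where a gene had several starts, the start nearest to that of its GENCODE transcript was used. That start still lay 34706 bases away for Atf3, 12577 for Nr4a1, 3809 for Nr4a3, 1210 for Jund, 1025 for Zfp36 and 671 for Fosl2. For these members the window may belong to another promoter than that of the GENCODE transcript. Sites outside a window were not searched, so a member without a match may hold the motif elsewhere. The cAMP response element TGACGTCA was found in 4 of 35 members (11.4%) and in 3.01% of all genes searched. All 4 were lower in 22-week BPH/2J than in BPN/3J, as were 23 of the 35 members searched. The 60 bases around each match show the CREB site named above, 5′ to 3′ on the strand of the gene, with the motif in capitals.
Btg2, chr1:134079288-134079347 (minus strand): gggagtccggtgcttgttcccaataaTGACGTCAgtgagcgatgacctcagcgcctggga
Dusp1, chr17:26508582-26508641 (minus strand): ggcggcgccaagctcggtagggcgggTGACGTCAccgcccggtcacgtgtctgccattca
Maff, chr15:79347465-79347524 (plus strand): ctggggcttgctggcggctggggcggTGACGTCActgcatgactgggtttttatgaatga
Ppp1r15a, chr7:45526247-45526306 (minus strand): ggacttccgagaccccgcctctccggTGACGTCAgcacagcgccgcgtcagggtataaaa
These matches began 166, 143, 29 and 12 bases before the start of Btg2, Dusp1, Maff and Ppp1r15a, in that order. The CArG box, the binding site of serum response factor, was found in Dusp5, Egr2, Srf and Zfp36, again 4 of 35 members (11.4%), against 1.35% of all genes searched, and 2 of the 4 were lower at 22 weeks. It is shown for Egr2, which was lower in both BPH/2J groups, and for Srf, which codes for the factor that binds this box.
Egr2, chr10:67537772-67537831 (plus strand): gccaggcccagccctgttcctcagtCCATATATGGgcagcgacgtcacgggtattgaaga
Srf, chr17:46556190-46556249 (minus strand): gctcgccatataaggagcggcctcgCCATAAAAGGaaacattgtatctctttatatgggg
The second CArG box of Srf, ccatataagg in lower case in the same window, began 82 bases before its start, and the one in capitals 62 bases before it. The EGR site GCGNGGGCG was found in 12 members (34.3%), against 10.7% of all genes, and the TATA element TATAAA in 12 (34.3%), against 7.44%. The NF-kappaB site was found in 7 members (20%), against 10.5%, among them Nfkbia, Tnfaip3, Ier3 and Fos. The AP-1 site TGANTCA was found in 2 (5.71%), against 4.95%. Members lower at 22 weeks made up 9 of the 12 with an EGR site, 6 of the 12 with a TATA element, 7 of the 7 with an NF-kappaB site and 1 of the 2 with an AP-1 site. None of the windows shown held another of these motifs overlapping the capitals. A match describes letters in a window and shows no binding.

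Depth was even, with 28806840 to 32913813 counted reads per library, and no pair of libraries in a group agreed within sampling noise. Replicate 1 of 4-week BPH/2J stood apart from replicates 2 and 3 of its group: the chi-square of its counts against theirs was 51.6 and 44.9 per degree of freedom, against 6.28 between replicates 2 and 3 and 10.6 to 23.3 within the other groups. That library held the highest value of its group for 32 of 41 members (78.0%), against 42.6% of all tested genes. Its ratio to the mean of replicates 2 and 3 had a median of 1.22 over the members and 1.00 over all tested genes. The ratio was largest for Gadd45b (2.20), Dusp5 (2.02), Egr2 (1.98) and Atf3 (1.97), and smallest for Maff (0.528) and Dusp6 (0.632). Mitochondrially encoded genes took 2.63% of its reads, against 1.19% and 1.33% in replicates 2 and 3. The share was 1.45% to 1.91% in 22-week BPH/2J and 2.02% to 2.78% in BPN/3J. The differences of the members at 4 weeks, and the counts of each list, are therefore also given without that library. The part of the mitochondrial share in the results was not tested. The defining endothelial markers were abundant everywhere: their summed level was 16281 to 16593 CPM in 22-week BPH/2J, 14688 to 15906 CPM in 4-week BPH/2J and 13951 to 14631 CPM in BPN/3J. Of these 14 markers, 6 were higher and 2 lower in 22-week BPH/2J than in BPN/3J. These were 42.9% and 14.3%, against 19.8% and 18.2% of all tested genes. At 22 weeks against 4 weeks, 5 were higher and 2 lower (35.7% and 14.3%, against 19.9% and 21.1%). In 4-week BPH/2J against BPN/3J, 4 were higher and 3 lower (28.6% and 21.4%, against 27.8% and 25.3%). Without 4-week replicate 1 the last counts were 4 higher and 3 lower, against 28.7% and 27% of all tested genes. Those between the ages were then 6 higher and 2 lower, against 23.8% and 23.6%.

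As a group, the immediate early genes were lower in 22-week BPH/2J than in BPN/3J of the same age. Of 41 members, 28 (68.3%) were lower and 0 were higher, where 18.2% of all tested genes were lower and 19.8% were higher (edgeR quasi-likelihood F test, Benjamini-Hochberg adjusted p under 0.05 over all tested genes). At an unadjusted p under 0.05 the counts were 33 lower and 0 higher, DESeq2 called 32 lower and 0 higher, and limma-voom 28 lower and 0 higher. An edgeR fit on these 2 groups alone called 33 lower and 0 higher. Over all tested genes, the edgeR fit with all 9 libraries called 5810 in either direction, DESeq2 5953 and limma-voom 5794. The fit on the 2 groups alone called 6604. The share of all tested genes at an unadjusted p under 0.05 is not given, here or for the lists below. The median log2 difference was -0.56 over the members and 0.02 over all tested genes, and 38 of 41 members had a value below zero. The groups did not overlap for 32 of 41 members, against 55.7% of all tested genes. The deepest differences were in Sik1, Csrnp1 and Maff, and the members that did not pass the test included Srf, Myc, Btg1, Zfp36l1 and the 3 Gadd45 genes. The count of lower members was 22 without BPN/3J replicate 3, where 14% of all tested genes were lower, and 34 without 4-week BPH/2J replicate 1, whose spread enters the shared fit, where 21.8% were lower. In bulk RNA, fewer cells that express a gene and less RNA per cell cannot be told apart. These genes can be transcribed within minutes, and the cells were bound to beads before RNA was taken. Levels in the animal and changes during isolation therefore cannot be told apart either. The comparison of the 4-week group with BPN/3J uses the same 3 BPN/3J libraries, and its values are set beside those of the 22-week group below. In what follows, a difference at 22 weeks or at 4 weeks is BPH/2J of that age minus 22-week BPN/3J, on the log2 scale.

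**Figure D1:**
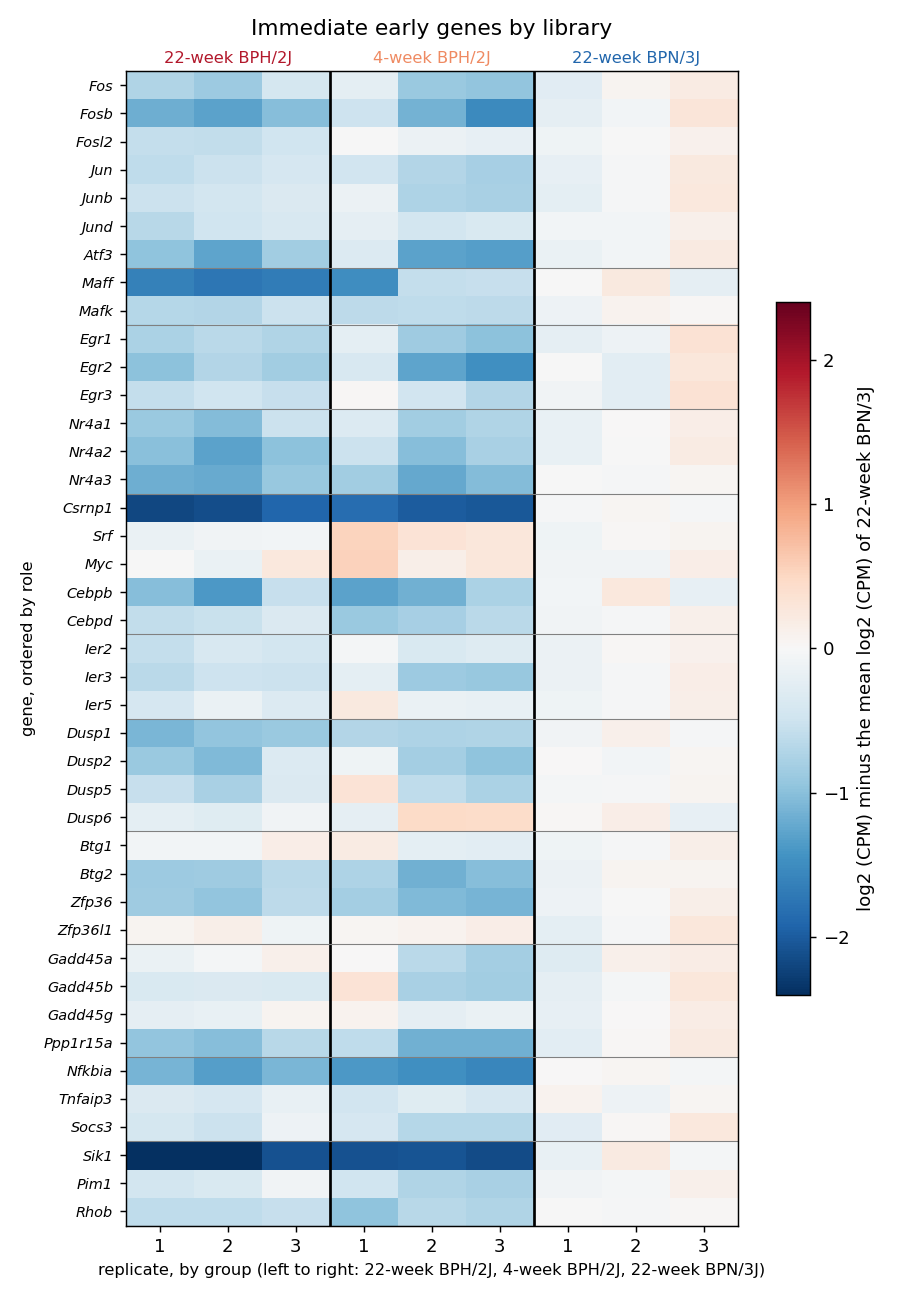
Level of each of the 41 immediate early genes (rows, ordered by role) in each of the 9 libraries (columns, by group), as log2 CPM minus the mean log2 CPM of the 3 BPN/3J libraries; blue is lower than that mean and red higher. Most rows are blue in both BPH/2J groups, Sik1 and Csrnp1 most deeply, and replicate 1 of 4-week BPH/2J is paler than replicates 2 and 3 in many rows.

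The AP-1 proteins are leucine zipper factors that bind DNA as pairs, for example of a Fos or ATF protein with a Jun protein. Of the 7 measured, 6 were lower in 22-week BPH/2J. Values are in CPM, library-size-normalised counts scaled by the trimmed mean of M values, for replicates 1, 2 and 3, and differences are given with their SE. Fos, the founding AP-1 member, was at 1047, 942 and 1277 CPM in 22-week BPH/2J, 1454, 929.7 and 885 CPM in 4-week BPH/2J and 1423, 1792 and 1978 CPM in BPN/3J. All 3 BPN/3J libraries lay above those of 22-week BPH/2J, while replicate 1 of 4-week BPH/2J fell within the BPN/3J range. Its difference was -0.67 ± 0.20 (adjusted p = 0.0214) at 22 weeks and -0.67 ± 0.20 (adjusted p = 0.015) at 4 weeks. The Fos call at 22 weeks was lost without 22-week BPH/2J replicate 1 or 2 or BPN/3J replicate 2 or 3 (edgeR adjusted p = 0.0598 to 0.0828), and the call at 4 weeks without 4-week replicate 2 or 3 or BPN/3J replicate 3 (adjusted p = 0.0546 to 0.0608). Fosb, its close relative, was at 439, 405 and 485 CPM in 22-week BPH/2J, 704, 449 and 341 CPM in 4-week BPH/2J and 848, 944 and 1202 CPM in BPN/3J. It separated both BPH/2J groups from BPN/3J and differed by -1.17 ± 0.23 (adjusted p = 0.00255) at 22 weeks and -1.00 ± 0.22 (adjusted p = 0.00351) at 4 weeks. Atf3, a stress-induced partner of Jun proteins, was at 159.7, 129.7 and 176 CPM in 22-week BPH/2J, 250.3, 128 and 125 CPM in 4-week BPH/2J and 280.0, 299.9 and 365 CPM in BPN/3J, again with no overlap with BPN/3J in either group. It differed by -1.02 ± 0.24 (adjusted p = 0.00739) at 22 weeks and by -0.91 ± 0.24 (adjusted p = 0.00873) at 4 weeks. Without 4-week replicate 1 the differences at 4 weeks were -0.93 for Fos, -1.34 for Fosb and -1.31 for Atf3 (edgeR adjusted p at most 0.000388).

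Among the Jun proteins, Jun was at 778, 824 and 898 CPM in 22-week BPH/2J, 856, 723 and 684 CPM in 4-week BPH/2J and 1026, 1159 and 1385 CPM in BPN/3J. Neither BPH/2J group overlapped BPN/3J, and the difference was -0.51 ± 0.12 (adjusted p = 0.0075) at 22 weeks and -0.66 ± 0.12 (adjusted p = 0.00103) at 4 weeks. Jund, the Jun protein that resting cells also make, was at 166, 187 and 202 CPM in 22-week BPH/2J, 227, 194 and 203 CPM in 4-week BPH/2J and 251, 252 and 286 CPM in BPN/3J. It too lay below BPN/3J in every BPH/2J library, at -0.51 ± 0.09 (adjusted p = 0.00163) at 22 weeks and -0.34 ± 0.09 (adjusted p = 0.00883) at 4 weeks. Junb was at 679, 711 and 757 CPM in 22-week BPH/2J, 870.3, 576 and 566 CPM in 4-week BPH/2J and 823, 946 and 1154 CPM in BPN/3J. Its 22-week BPH/2J libraries lay below BPN/3J without passing the test, at -0.45 ± 0.17 (adjusted p = 0.058), and replicate 1 of 4-week BPH/2J overlapped BPN/3J. Junb was lower at 4 weeks, at -0.54 ± 0.17 (adjusted p = 0.0199). That call was lost without 4-week replicate 2 or 3 or BPN/3J replicate 3 (edgeR adjusted p = 0.0715 to 0.0868), and the 22-week difference passed without 4-week replicate 1 (0.00658) or BPN/3J replicate 1 (0.0392), in DESeq2 (0.0215) and in the edgeR fit on the 2 groups alone (0.0101). Fosl2, a Fos relative of slower course, followed another order, at 114, 112 and 123 CPM in 22-week BPH/2J, 168, 154 and 147 CPM in 4-week BPH/2J and 157, 169 and 183 CPM in BPN/3J. The 22-week BPH/2J libraries lay below both other groups, with a difference of -0.55 ± 0.07 (adjusted p = 0.000312) from BPN/3J, while the 4-week group overlapped BPN/3J at -0.12 ± 0.07 (adjusted p = 0.196). With 4-week replicate 1 left out, the differences at 4 weeks were -0.76 for Jun, -0.77 for Junb and -0.41 for Jund (edgeR adjusted p at most 0.00275), and Fosl2 was at -0.17 ± 0.07 (adjusted p = 0.0582).

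The small Maf proteins, which pair with other leucine zipper factors and lack an activation domain of their own, were lower in both BPH/2J groups. Maff was at 36.5, 33.9 and 35.1 CPM in 22-week BPH/2J, 40.3, 75.5 and 77.2 CPM in 4-week BPH/2J and 112, 132 and 96.8 CPM in BPN/3J. The groups did not overlap, and replicate 1 of 4-week BPH/2J lay near the 22-week libraries while replicates 2 and 3 lay between the 22-week libraries and BPN/3J. Maff was 3.24-fold lower in 22-week BPH/2J, a log2 difference of -1.69 ± 0.21 (adjusted p = 0.000174), and differed by -0.82 ± 0.20 (adjusted p = 0.0063) in 4-week BPH/2J. Mafk was at 111, 109.9 and 126 CPM in 22-week BPH/2J, 115, 117 and 116 CPM in 4-week BPH/2J and 166, 190.1 and 183 CPM in BPN/3J. Its libraries agreed closely within each group, and it differed from BPN/3J by -0.63 ± 0.07 (adjusted p = 8.58e-05) at 22 weeks and -0.62 ± 0.07 (adjusted p = 4.01e-05) at 4 weeks. The 4-week values without replicate 1 were -0.57 for Maff and -0.62 for Mafk (edgeR adjusted p at most 0.000958).

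EGR proteins are zinc finger factors that bind GC-rich promoter sites, and all 3 were lower in 22-week BPH/2J. Egr1, which responds to shear stress and growth factors in vessel walls, was at 1111, 1206 and 1144 CPM in 22-week BPH/2J, 1606, 1042 and 956 CPM in 4-week BPH/2J and 1620.3, 1729.7 and 2390.2 CPM in BPN/3J. Neither BPH/2J group overlapped BPN/3J, although replicate 1 at 4 weeks lay just below its lowest library, and replicate 3 of BPN/3J was the highest library. The difference was -0.73 ± 0.19 (adjusted p = 0.0138) at 22 weeks and -0.67 ± 0.19 (adjusted p = 0.0139) at 4 weeks. Egr2 was at 29.5, 36.3 and 32.9 CPM in 22-week BPH/2J, 45.0, 24.4 and 21.1 CPM in 4-week BPH/2J and 58.4, 49.1 and 70.6 CPM in BPN/3J, with both BPH/2J groups below BPN/3J. It differed by -0.85 ± 0.24 (adjusted p = 0.0183) at 22 weeks and by -0.98 ± 0.24 (adjusted p = 0.00614) at 4 weeks. Egr3, the least abundant of the 3, was at 8.69, 9.26 and 8.89 CPM in 22-week BPH/2J, 13.1, 9.44 and 7.98 CPM in 4-week BPH/2J and 12.2, 10.9 and 16.4 CPM in BPN/3J. It was lower at 22 weeks, with a log2 difference of -0.56 ± 0.19 (adjusted p = 0.0411), and at 4 weeks, where the groups overlapped, its value was -0.37 ± 0.19 (adjusted p = 0.124). The 22-week calls of the family leaned on single libraries: without BPN/3J replicate 3 the edgeR adjusted p was 0.0599 for Egr1, 0.076 for Egr2 and 0.17 for Egr3. Egr2 also lost its call without 22-week BPH/2J replicate 1 or 3 (0.0647 and 0.0531), and Egr3 without any 22-week BPH/2J replicate or BPN/3J replicate 1 (0.0586 to 0.104). Egr3 was not called at 22 weeks under upper-quartile scaling (0.0503) or with replicate number as a block (0.0641). The 4-week call of Egr1 was lost without 4-week replicate 2 or 3 or BPN/3J replicate 3 (0.0507 to 0.0635), and Egr3 passed at 4 weeks without 4-week replicate 1 (0.0103). In that fit the differences at 4 weeks were -0.94 for Egr1, -1.38 for Egr2 and -0.60 for Egr3, with an edgeR adjusted p of 0.000308 or less for Egr1 and Egr2.

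The NR4A orphan nuclear receptors, which act without a known circulating ligand and are induced by cAMP and cytokines, were lower in both BPH/2J groups, and for all 3 neither group overlapped BPN/3J. Nr4a1 was at 203, 181 and 262 CPM in 22-week BPH/2J, 300.1, 211 and 227 CPM in 4-week BPH/2J and 332, 376 and 421 CPM in BPN/3J. Nr4a2 was at 34.1, 28.3 and 34.6 CPM in 22-week BPH/2J, 48.2, 33.8 and 40.0 CPM in 4-week BPH/2J and 60.4, 67.9 and 79.3 CPM in BPN/3J. Nr4a3 was at 21.6, 20.8 and 25.9 CPM in 22-week BPH/2J, 26.9, 20.6 and 23.4 CPM in 4-week BPH/2J and 47.8, 47.2 and 49.8 CPM in BPN/3J. For each of these receptors the 3 BPN/3J libraries were the 3 highest of all 9. The log2 difference at 22 weeks was -0.81 ± 0.16 (adjusted p = 0.00292) for Nr4a1, -1.10 ± 0.14 (adjusted p = 0.000194) for Nr4a2 and -1.09 ± 0.11 (adjusted p = 3.38e-05) for Nr4a3. At 4 weeks it was -0.61 ± 0.16 (adjusted p = 0.00768), -0.77 ± 0.14 (adjusted p = 0.000856) and -1.03 ± 0.11 (adjusted p = 2.07e-05) in the same order, and without 4-week replicate 1 it was -0.78 for Nr4a1, -0.90 for Nr4a2 and -1.13 for Nr4a3 (adjusted p at most 0.00092).

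Among the other transcription factors, Csrnp1, a nuclear protein induced by the Wnt regulator axin, stood far apart. It was at 61.1, 63.4 and 74.4 CPM in 22-week BPH/2J, 78.3, 69.6 and 67.5 CPM in 4-week BPH/2J and 272, 288 and 272 CPM in BPN/3J. Every BPH/2J library lay under the lowest BPN/3J library by a wide gap, and Csrnp1 was 4.18-fold lower at 22 weeks, with a log2 difference of -2.06 ± 0.09 (adjusted p = 7.43e-08), and 3.87-fold lower at 4 weeks, with -1.95 ± 0.09 (adjusted p = 9.14e-08). The C/EBP factors bind as leucine zippers and act in inflammation and differentiation. Cebpd was at 47.8, 50.0 and 56.6 CPM in 22-week BPH/2J, 38.9, 41.7 and 46.0 CPM in 4-week BPH/2J and 67.7, 70.7 and 78.2 CPM in BPN/3J, with all 3 groups apart. It differed from BPN/3J by -0.49 ± 0.09 (adjusted p = 0.00161) at 22 weeks and -0.77 ± 0.09 (adjusted p = 3.97e-05) at 4 weeks. Cebpb, a weakly expressed member, was at 5.38, 4.18 and 7.47 CPM in 22-week BPH/2J, 4.50, 4.93 and 6.41 CPM in 4-week BPH/2J and 10.4, 13.1 and 9.57 CPM in BPN/3J. Both BPH/2J groups lay below BPN/3J, at -0.96 ± 0.21 (adjusted p = 0.00585) at 22 weeks and -1.06 ± 0.22 (adjusted p = 0.00195) at 4 weeks. Srf, serum response factor itself, took the opposite course in the young group, at 71.5, 75.6 and 76.4 CPM in 22-week BPH/2J, 116, 101 and 96.8 CPM in 4-week BPH/2J and 74.9, 81.4 and 84.0 CPM in BPN/3J. It was higher in 4-week BPH/2J than in BPN/3J without overlap, by 0.38 ± 0.07 (adjusted p = 0.00148), while its 22-week value overlapped BPN/3J at -0.10 ± 0.07 (adjusted p = 0.294). Myc, a factor that drives ribosome and cell cycle genes, ranged from 14.4 to 19.2 CPM in 22-week BPH/2J, 17.8 to 23.6 CPM in 4-week BPH/2J and 15.3 to 18.1 CPM in BPN/3J, and differed by 0.03 ± 0.13 (adjusted p = 0.892) at 22 weeks and 0.33 ± 0.13 (adjusted p = 0.0615) at 4 weeks. The Myc value at 4 weeks passed without 22-week BPH/2J replicate 3, 4-week replicate 2 or BPN/3J replicate 3 (adjusted p = 0.0341 to 0.0466). Leaving out 4-week replicate 1 gave 4-week differences of -2.02 for Csrnp1, -0.72 for Cebpd, -0.95 for Cebpb and 0.30 for Srf (edgeR adjusted p at most 0.00506), and Myc was at 0.21 ± 0.13 (adjusted p = 0.187).

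**Figure D2:**
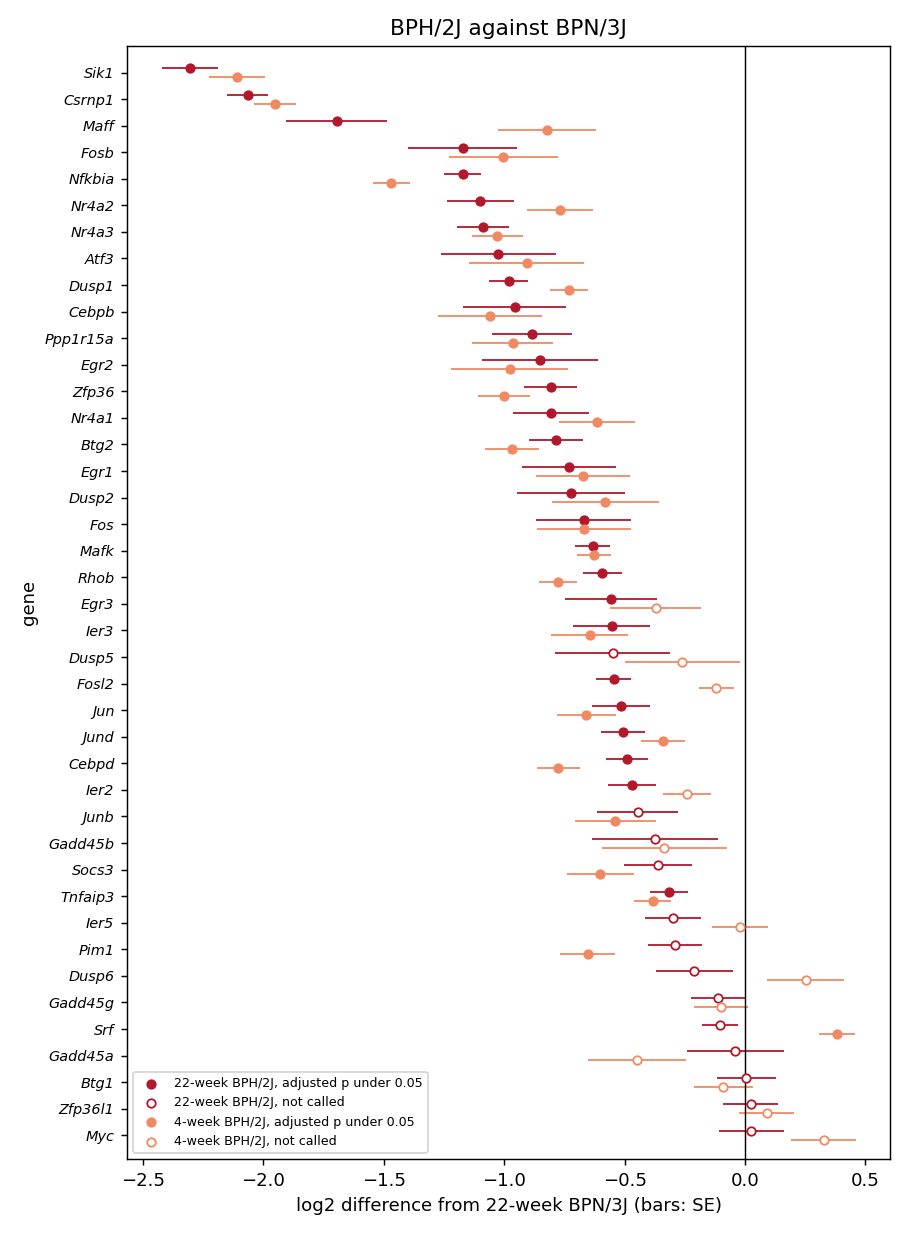
Log2 difference from BPN/3J for each of the 41 genes, at 22 weeks (dark red) and 4 weeks (orange); points are edgeR estimates, bars their SE, filled points have an adjusted p under 0.05, and both sets share the 3 BPN/3J libraries. Sik1 and Csrnp1 lie farthest below zero in both groups, and Srf is the only filled point above zero.

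Of the 4 dual-specificity phosphatases, which end MAP kinase signals, 2 were lower in 22-week BPH/2J and the same 2, Dusp1 and Dusp2, in 4-week BPH/2J. Dusp1 removes phosphate from the MAP kinases p38, JNK and ERK in the nucleus, and was at 588, 647 and 676 CPM in 22-week BPH/2J, 766, 748 and 759.9 CPM in 4-week BPH/2J and 1179, 1366 and 1228 CPM in BPN/3J. Its libraries were tight and all 3 groups were apart, with Dusp1 1.97-fold lower at 22 weeks, a log2 difference of -0.98 ± 0.08 (adjusted p = 1.04e-05), and lower at 4 weeks, at -0.73 ± 0.08 (adjusted p = 3.1e-05). Dusp2, another nuclear MAP kinase phosphatase, was at 20.7, 18.4 and 30.6 CPM in 22-week BPH/2J, 35.5, 21.6 and 19.7 CPM in 4-week BPH/2J and 38.5, 36.7 and 39.6 CPM in BPN/3J. It lay below BPN/3J in both groups, at -0.72 ± 0.22 (adjusted p = 0.0271) at 22 weeks and -0.58 ± 0.22 (adjusted p = 0.0478) at 4 weeks. The Dusp2 call at 22 weeks was lost without 22-week BPH/2J replicate 1 or 2 or any BPN/3J replicate (adjusted p = 0.0548 to 0.0923), and at 4 weeks without 22-week replicate 1, 4-week replicate 2 or 3 or any BPN/3J replicate (0.0574 to 0.156). Dusp6, the cytoplasmic phosphatase of ERK, was at 159.9, 155 and 178 CPM in 22-week BPH/2J, 163, 260.3 and 255 CPM in 4-week BPH/2J and 192, 211 and 166 CPM in BPN/3J. It overlapped BPN/3J in both groups, at -0.21 ± 0.16 (adjusted p = 0.319) and 0.25 ± 0.16 (adjusted p = 0.204), and was higher at 4 weeks without 4-week replicate 1 (0.00229). Dusp5, the nuclear phosphatase of ERK, ranged from 15.6 to 20.9 CPM in 22-week BPH/2J, 15.7 to 33.5 CPM in 4-week BPH/2J and 25.8 to 27.9 CPM in BPN/3J. Its 22-week libraries lay below BPN/3J at -0.55 ± 0.24 (adjusted p = 0.0936), which passed without 4-week replicate 1 (0.00152), and its 4-week value was -0.26 ± 0.24 (adjusted p = 0.38), which passed as well without that replicate (edgeR adjusted p = 0.000548). The fit on the 2 groups alone called Dusp5 lower at 22 weeks (0.00226). The 4-week differences without that replicate were -0.74 for Dusp1, -0.89 for Dusp2, -0.68 for Dusp5 and 0.44 for Dusp6 (adjusted p at most 0.00229).

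Sik1, a salt-inducible kinase that restrains the CREB coactivators of the CRTC family, showed the deepest difference of all members at 22 weeks. It was at 77.1, 77.0 and 96.6 CPM in 22-week BPH/2J, 96.5, 98.1 and 92.7 CPM in 4-week BPH/2J and 364, 478 and 396 CPM in BPN/3J. No BPH/2J library came near the BPN/3J range: Sik1 was 4.94-fold lower at 22 weeks, with a log2 difference of -2.30 ± 0.12 (adjusted p = 3.29e-07), and 4.31-fold lower at 4 weeks, with -2.11 ± 0.12 (adjusted p = 3.75e-07). Nfkbia, which codes for the inhibitor that holds NF-kappaB in the cytoplasm, was at 209.8, 183 and 213 CPM in 22-week BPH/2J, 176, 163 and 154 CPM in 4-week BPH/2J and 455, 470.0 and 439 CPM in BPN/3J. All 3 groups were apart, with Nfkbia 2.25-fold lower at 22 weeks (adjusted p = 2.28e-06, log2 -1.17 ± 0.08) and 2.77-fold lower at 4 weeks (adjusted p = 2.98e-07, log2 -1.47 ± 0.08). Tnfaip3, the ubiquitin-editing enzyme that damps NF-kappaB signalling, was at 62.9, 60.5 and 70.6 CPM in 22-week BPH/2J, 58.7, 65.5 and 60.9 CPM in 4-week BPH/2J and 84.9, 73.7 and 82.8 CPM in BPN/3J. Both BPH/2J groups lay below BPN/3J by a smaller step, -0.32 ± 0.08 (adjusted p = 0.00961) at 22 weeks and -0.38 ± 0.08 (adjusted p = 0.00197) at 4 weeks. Socs3, which blocks cytokine receptors that use JAK kinases, was at 194, 182 and 239 CPM in 22-week BPH/2J, 196, 162 and 163 CPM in 4-week BPH/2J and 215, 264 and 309.6 CPM in BPN/3J. It was lower at 4 weeks, at -0.60 ± 0.14 (adjusted p = 0.00454), and at 22 weeks, where 1 BPH/2J library overlapped BPN/3J, its value was -0.36 ± 0.14 (adjusted p = 0.0651). That 22-week value passed without 22-week BPH/2J replicate 3 (adjusted p = 0.0348), 4-week replicate 1 (0.0415) or BPN/3J replicate 1 (0.0202). DESeq2 called Socs3 at 22 weeks as well (0.0347). At 4 weeks, leaving out replicate 1 gave differences of -2.11 for Sik1, -1.52 for Nfkbia, -0.35 for Tnfaip3 and -0.70 for Socs3 (edgeR adjusted p at most 0.00452).

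Rhob, an endosomal GTPase whose message is short-lived, was at 599, 596 and 619 CPM in 22-week BPH/2J, 468, 571 and 555 CPM in 4-week BPH/2J and 911, 896 and 926 CPM in BPN/3J. It was lower without overlap in both groups, at -0.59 ± 0.08 (adjusted p = 0.000299) at 22 weeks and -0.78 ± 0.08 (adjusted p = 2.07e-05) at 4 weeks. Pim1, a kinase that promotes survival, was at 19.8, 21.1 and 25.5 CPM in 22-week BPH/2J, 19.4, 16.5 and 15.8 CPM in 4-week BPH/2J and 25.4, 26.2 and 29.5 CPM in BPN/3J. It was lower at 4 weeks, at -0.65 ± 0.11 (adjusted p = 0.000764), and at 22 weeks 1 library overlapped BPN/3J and the value was -0.29 ± 0.11 (adjusted p = 0.0663), which passed without 22-week BPH/2J replicate 3 (0.0243) or 4-week replicate 1 (0.0358). Among the mRNA decay and BTG proteins, Zfp36 codes for tristetraprolin, which binds the AU-rich nonamer shown above, including the copy in its own message. It was at 371, 345 and 433 CPM in 22-week BPH/2J, 378, 320.1 and 308 CPM in 4-week BPH/2J and 615, 664 and 733 CPM in BPN/3J, and both BPH/2J groups lay below BPN/3J, at -0.81 ± 0.11 (adjusted p = 0.000292) at 22 weeks and -1.00 ± 0.11 (adjusted p = 3.06e-05) at 4 weeks. Btg2, an antiproliferative protein that promotes shortening of poly(A) tails, was at 313, 319 and 367 CPM in 22-week BPH/2J, 343, 257 and 280.4 CPM in 4-week BPH/2J and 519, 601 and 601 CPM in BPN/3J. It was lower, with a log2 difference of -0.79 ± 0.11 (adjusted p = 0.000433) at 22 weeks and -0.97 ± 0.11 (adjusted p = 4.84e-05) at 4 weeks, without overlap. Their relatives did not pass. Zfp36l1 was at 172, 182 and 154 CPM in 22-week BPH/2J, 171, 176 and 185 CPM in 4-week BPH/2J and 139.7, 162 and 199 CPM in BPN/3J, and Btg1 was at 223, 223 and 262 CPM in 22-week BPH/2J, 267, 198 and 196 CPM in 4-week BPH/2J and 218, 228 and 258 CPM in BPN/3J. Groups overlapped for both, with 0.02 ± 0.11 (adjusted p = 0.885) and 0.01 ± 0.12 (adjusted p = 0.978) at 22 weeks and 0.09 ± 0.11 (adjusted p = 0.533) and -0.09 ± 0.12 (adjusted p = 0.562) at 4 weeks, and Btg1 was lower at 4 weeks without 4-week replicate 1 (0.0342). Pim1 at 22 weeks also passed in DESeq2 (0.0465) and in the edgeR fit on the 2 groups alone (0.0421). In the fit without 4-week replicate 1 the differences at 4 weeks were -0.69 for Rhob, -0.74 for Pim1, -1.09 for Zfp36, -1.09 for Btg2 and -0.25 for Btg1 (edgeR adjusted p at most 0.0342), and Zfp36l1 was at 0.11 ± 0.12 (adjusted p = 0.458).

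Ppp1r15a, also called GADD34, directs a phosphatase to the initiation factor eIF2α and so restarts translation after stress. It was at 462, 436 and 555 CPM in 22-week BPH/2J, 580.2, 397 and 396 CPM in 4-week BPH/2J and 747, 903 and 1029.9 CPM in BPN/3J. Neither BPH/2J group overlapped BPN/3J, and Ppp1r15a differed by -0.88 ± 0.17 (adjusted p = 0.00223) at 22 weeks and -0.96 ± 0.17 (adjusted p = 0.000681) at 4 weeks. The GADD45 genes, which code for small stress proteins that bind kinases and cell cycle proteins, did not pass against BPN/3J at either age in the fit with all 9 libraries. Gadd45b was at 79.2, 80.5 and 79.8 CPM in 22-week BPH/2J, 129, 59.6 and 57.7 CPM in 4-week BPH/2J and 88.6, 98.9 and 123 CPM in BPN/3J, with replicate 1 of the 4-week group above every other library. Its values were -0.37 ± 0.26 (adjusted p = 0.28) at 22 weeks and -0.33 ± 0.26 (adjusted p = 0.303) at 4 weeks, and without 4-week replicate 1 Gadd45b was lower in both, at -0.37 ± 0.10 (adjusted p = 0.0109) and -0.82 ± 0.11 (adjusted p = 0.000137). Gadd45g ranged from 79.7 to 97.5 CPM in 22-week BPH/2J, 80.0 to 98.6 CPM in 4-week BPH/2J and 81.5 to 105 CPM in BPN/3J, with -0.11 ± 0.11 (adjusted p = 0.457) at 22 weeks and -0.10 ± 0.11 (adjusted p = 0.485) at 4 weeks. Gadd45a, a scarce transcript, ranged from 12.7 to 15.4 CPM in 22-week BPH/2J, 8.13 to 14.4 CPM in 4-week BPH/2J and 11.5 to 16.2 CPM in BPN/3J, with -0.04 ± 0.20 (adjusted p = 0.888) at 22 weeks and -0.45 ± 0.20 (adjusted p = 0.0877) at 4 weeks. Gadd45a passed as lower at 4 weeks without 4-week replicate 1 (0.00214) or BPN/3J replicate 1 (0.043). Gadd45b was also lower at 22 weeks in the fit on the 2 groups alone (0.0152). The fit without 4-week replicate 1 put the 4-week difference at -1.17 ± 0.14 (adjusted p = 4.04e-05) for Ppp1r15a, -0.74 ± 0.15 (adjusted p = 0.00214) for Gadd45a and -0.20 ± 0.11 (adjusted p = 0.15) for Gadd45g.

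The IER genes are named for their early induction and share little sequence. Ier2, a small nuclear protein, was at 215, 245 and 237 CPM in 22-week BPH/2J, 312, 248 and 257 CPM in 4-week BPH/2J and 292, 328 and 346 CPM in BPN/3J. The 22-week libraries lay below both other groups, with a difference of -0.47 ± 0.10 (adjusted p = 0.00416) from BPN/3J, and the 4-week value was -0.24 ± 0.10 (adjusted p = 0.0606). Ier3, which protects cells from death signals, was at 143, 160.1 and 158 CPM in 22-week BPH/2J, 191, 122 and 120.0 CPM in 4-week BPH/2J and 204, 221 and 252 CPM in BPN/3J. Neither group overlapped BPN/3J, and Ier3 differed by -0.55 ± 0.16 (adjusted p = 0.0197) at 22 weeks and -0.64 ± 0.16 (adjusted p = 0.00612) at 4 weeks. Ier5, which acts with heat shock factor, was at 259.9, 309.8 and 273 CPM in 22-week BPH/2J, 406, 310.2 and 306 CPM in 4-week BPH/2J and 322, 337 and 378 CPM in BPN/3J. Its 22-week libraries lay below BPN/3J without passing, at -0.30 ± 0.12 (adjusted p = 0.0649), and its 4-week value was -0.02 ± 0.12 (adjusted p = 0.902). The Ier3 call at 22 weeks was lost without 22-week BPH/2J replicate 1 (0.0692) or BPN/3J replicate 3 (0.0785). Without 4-week replicate 1, Ier5 passed at 22 weeks (0.0114) and Ier2 at 4 weeks (0.0044), and Ier2 at 4 weeks also without BPN/3J replicate 1 (0.0364; edgeR adjusted p in each case). Ier5 at 22 weeks passed in DESeq2 (0.0348) and in the edgeR fit on the 2 groups alone (0.0158), and Ier2 at 4 weeks passed under RLE scaling (0.0499), with the filter of 1 CPM in 3 libraries (0.0476) and in DESeq2 (0.0376). The 4-week differences without 4-week replicate 1 were -0.35 for Ier2 and -0.90 for Ier3 (edgeR adjusted p at most 0.0044), and Ier5 was at -0.16 ± 0.09 (adjusted p = 0.138).

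**Figure D3:**
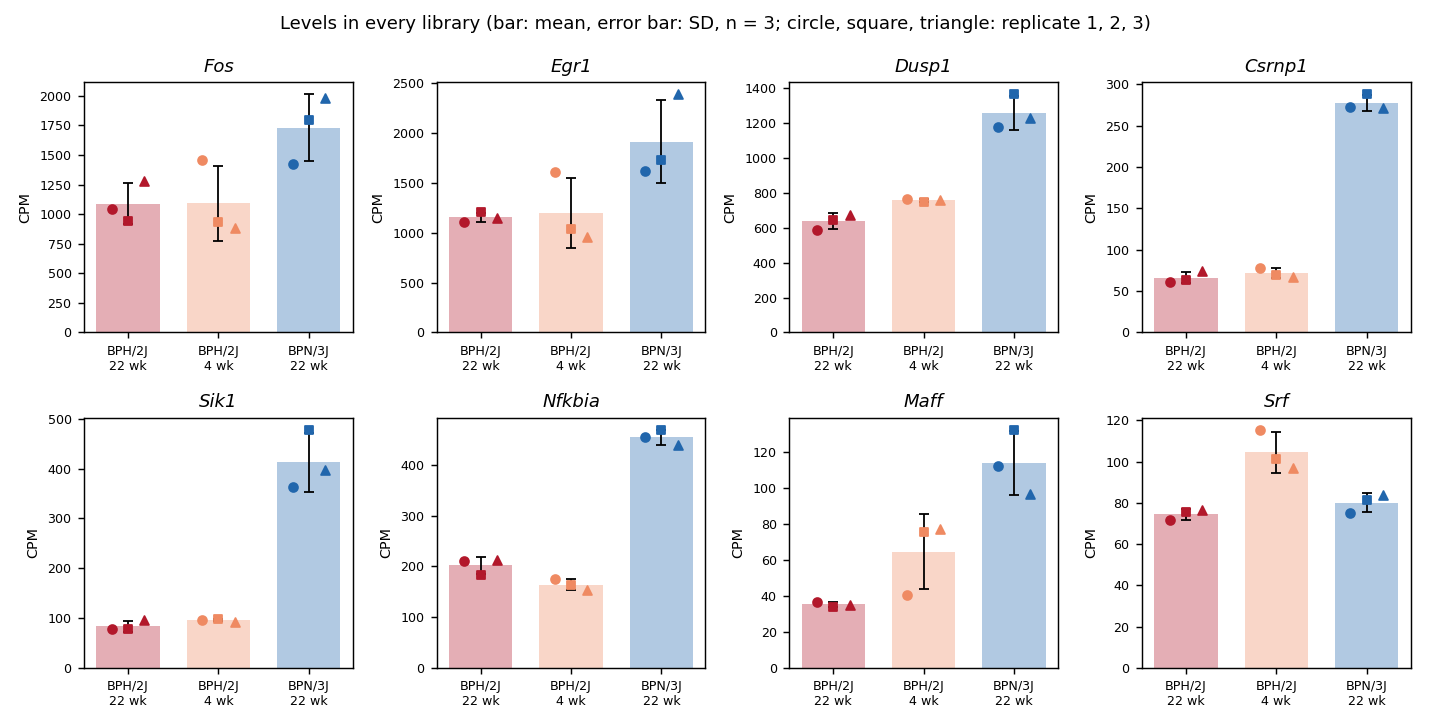
CPM of 8 immediate early genes in every library, with 22-week BPH/2J left, 4-week BPH/2J in the middle and BPN/3J right; bars are means of 3 libraries, error bars are SD and symbols are replicates. Csrnp1, Sik1, Nfkbia and Dusp1 leave a gap between both BPH/2J groups and BPN/3J, Fos and Egr1 show replicate 1 of the 4-week group near BPN/3J, and Srf is highest at 4 weeks.

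Relative to the length of the gene model the authors deposited, Fos was the most abundant member, at 463 CPM per kilobase in 22-week BPH/2J, 463 in 4-week BPH/2J and 736 in BPN/3J. Junb followed with 396 CPM per kilobase in 22-week BPH/2J, 371 in 4-week BPH/2J and 539 in BPN/3J. Dusp1 was at 236 CPM per kilobase in 22-week BPH/2J, 281 in 4-week BPH/2J and 466 in BPN/3J, and Egr1 at 257, 268 and 427 in the same groups. At the low end, Cebpb was at 3.78 CPM per kilobase in 22-week BPH/2J, 3.51 in 4-week BPH/2J and 7.33 in BPN/3J, and Nr4a3 at 3.80, 3.95 and 8.07. Myc was at 6.08 CPM per kilobase in 22-week BPH/2J, 7.48 in 4-week BPH/2J and 5.97 in BPN/3J, the lowest member there. Of these, Fos, Dusp1, Egr1, Cebpb and Nr4a3 were lower in both BPH/2J groups, Junb passed at 4 weeks alone, and Myc passed in neither.

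Between 22-week and 4-week BPH/2J the immediate early genes did not move as a group. Of 41 members, 3 were higher and 5 lower at 22 weeks, where 19.9% of all tested genes were higher and 21.1% lower, and the median log2 difference was -0.06 over the members and 0.01 over all tested genes. The groups did not overlap for 9 members, against 51.2% of all tested genes. The lower members were Fosl2 at -0.43 ± 0.07 (adjusted p = 0.00124), Srf at -0.49 ± 0.07 (adjusted p = 0.000609), Maff at -0.87 ± 0.21 (adjusted p = 0.0074), Dusp6 at -0.46 ± 0.16 (adjusted p = 0.0389) and Dusp1 at -0.25 ± 0.08 (adjusted p = 0.0277), as log2 differences at 22 weeks against 4 weeks. The higher members were Nfkbia at 0.30 ± 0.08 (adjusted p = 0.0106), Pim1 at 0.36 ± 0.11 (adjusted p = 0.0281) and Cebpd at 0.29 ± 0.09 (adjusted p = 0.0244). Fosl2, Srf, Maff, Dusp1, Nfkbia, Pim1 and Cebpd did not overlap between the ages, and Dusp6 overlapped through replicate 1 of the 4-week group. Fos averaged 1089 ± 171 CPM at 22 weeks and 1089.7 ± 316 CPM at 4 weeks (SD, n = 3 each; edgeR adjusted p = 0.997). Egr1 differed by -0.06 ± 0.19 (adjusted p = 0.833) and Sik1 by -0.20 ± 0.11 (adjusted p = 0.186). Ier2 and Rhob were apart between the ages without passing, at -0.23 ± 0.10 (adjusted p = 0.0884) and 0.19 ± 0.08 (adjusted p = 0.0856). For the other 28 members the log2 difference lay between -0.33 (Nr4a2) and 0.41 (Gadd45a).

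The count of higher members changed without replicate 1 of the 4-week group, to 10 (24.4%), with 5 (12.2%) lower at 22 weeks and a median of 0.10. Of all tested genes 23.8% were then higher and 23.6% lower, so the share of higher members was near that of all genes. The 10 were Junb, Egr2, Ier3, Btg1, Btg2, Zfp36, Gadd45a, Gadd45b, Nfkbia and Pim1. Gadd45a was at 0.70 ± 0.15 (adjusted p = 0.00372), Egr2 at 0.54 ± 0.15 (adjusted p = 0.0117), Ier3 at 0.35 ± 0.09 (adjusted p = 0.00753) and Gadd45b at 0.45 ± 0.11 (adjusted p = 0.00767), the log2 difference of the last being -0.04 ± 0.26 (adjusted p = 0.916) with all libraries. In the fit without it, the members called with all libraries were at -0.37 for Fosl2, -0.41 for Srf, -1.12 for Maff, -0.65 for Dusp6, -0.24 for Dusp1, 0.35 for Nfkbia, 0.46 for Pim1 and 0.23 for Cebpd. Cebpd lost its call without that library (0.0526), without 22-week replicate 3 (0.0966) or without 4-week replicate 2 (0.0674). Pim1 lost its call without 22-week replicate 3 or 4-week replicate 2 or 3 (adjusted p = 0.084 to 0.108). Dusp1 lost it without 22-week replicate 1 or 2 or 4-week replicate 2 or 3 (0.0549 to 0.129), and Dusp6 without any of these, 22-week replicate 3 or BPN/3J replicate 1 (0.0533 to 0.144). Myc was lower at 22 weeks without 22-week replicate 3 (0.0435) and Nr4a2 without 4-week replicate 2 (0.0267), and Rhob was higher under upper-quartile scaling (0.0439). Only 3 members were lower without 22-week replicate 1 or 2 or 4-week replicate 3, and only 1 was higher without 22-week replicate 3 or 4-week replicate 2. Fosl2, Srf, Maff and Nfkbia kept their calls under all 17 alternatives.

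**Figure D4:**
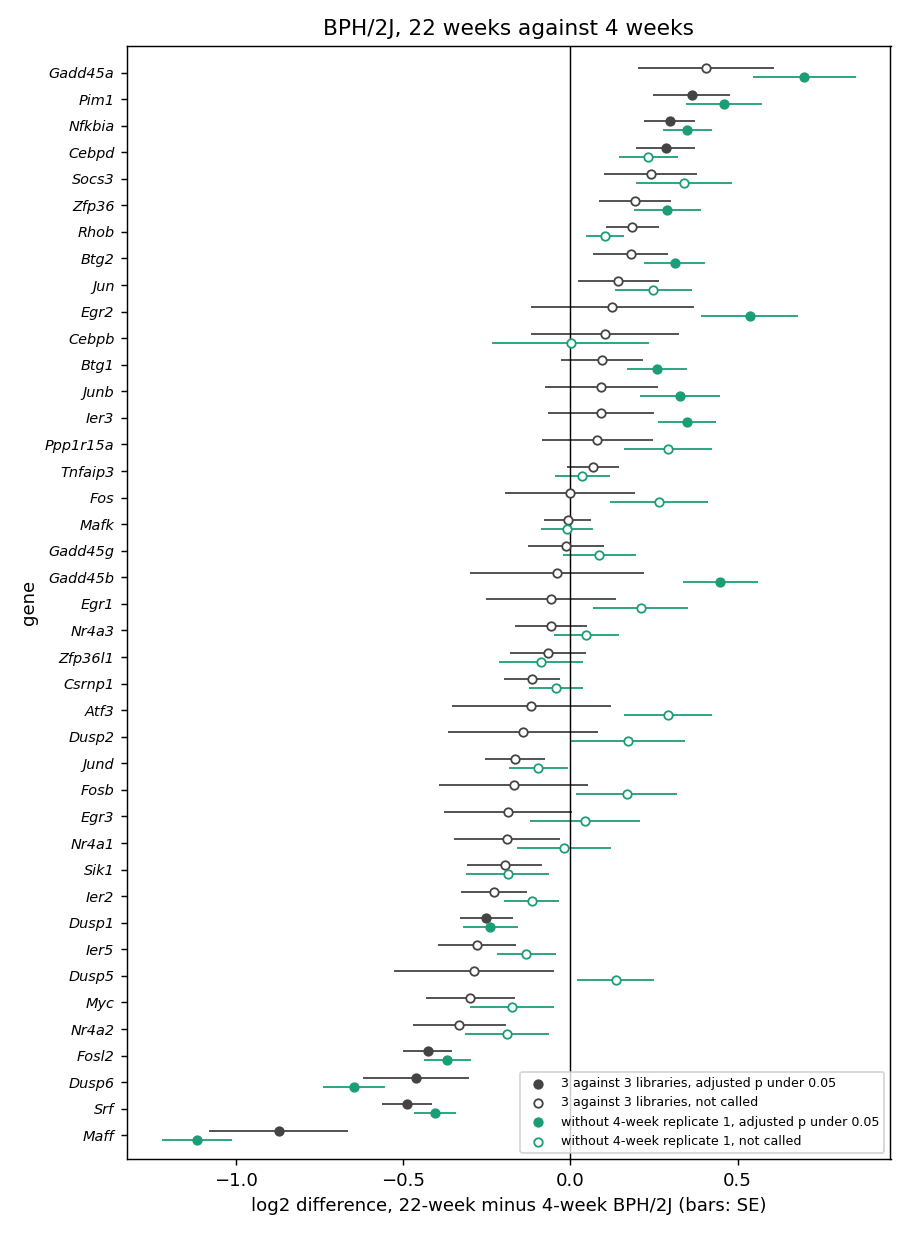
Log2 difference of 22-week minus 4-week BPH/2J for each of the 41 genes, with all libraries and without replicate 1 of the 4-week group; bars are SE and filled points have an adjusted p under 0.05. With all libraries 3 filled points lie above zero and 5 below, and without that library 10 lie above and 5 below.

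In 4-week BPH/2J, 28 members were lower than in BPN/3J and 1, Srf, was higher, where 25.3% of all tested genes were lower and 27.8% higher. The median log2 difference was -0.64 over the members and 0.00 over all tested genes, and the groups did not overlap for 27 members, against 59.2% of all tested genes. Without 4-week replicate 1 the counts were 34 lower and 2 higher, against 27% and 28.7% of all tested genes, and the median of the members was -0.74. Dusp6 was then higher beside Srf. The count of lower members was 24 (58.5%) without BPN/3J replicate 3, 4-week replicate 2 or 4-week replicate 3, where 21.8%, 22.1% and 21.1% of all tested genes were lower, in that order. Members higher numbered 2 in each of these cases other than without 4-week replicate 3, and 2 without 22-week BPH/2J replicate 3, and the added gene there was Myc. The authors' deposited table, at its own false discovery rate under 0.05, held 31 members lower and 0 higher in 22-week BPH/2J against BPN/3J, 5 lower and 3 higher at 22 weeks against 4 weeks, and 29 lower and 2 higher in 4-week BPH/2J against BPN/3J. Every member called in both sources had the same direction. Junb, Dusp5 and Socs3 were called at 22 weeks in the authors' deposited table and not in the edgeR fit used here, as were Nr4a2 between the ages and Gadd45a and Myc at 4 weeks. Dusp1 between the ages was called here and not in the authors' deposited table.

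The kinases and factors that sit upstream of these genes did not move one way. Of 44 tested members of that list (RAS, RAF and MAP kinases, RSK and MSK kinases, ternary complex factors, CREB and its coactivators, NF-kappaB), 7 were higher and 11 lower in 22-week BPH/2J than in BPN/3J (15.9% and 25%, against 19.8% and 18.2% of all tested genes), with a median of -0.05. Elk3, a ternary complex factor that represses until it is phosphorylated, was higher at 0.68 ± 0.07 (adjusted p = 3.06e-05), and Mapk3, which codes for an ERK kinase, at 0.50 ± 0.08 (adjusted p = 0.000665). Crebbp, a histone acetyltransferase that CREB recruits, was lower at -0.57 ± 0.11 (adjusted p = 0.00211), and Crem, a CREB relative, at -0.38 ± 0.08 (adjusted p = 0.00363). In the age comparison 9 were higher and 12 lower (20.5% and 27.3%, against 19.9% and 21.1% of all tested genes), led by Araf at 0.39 ± 0.05 (adjusted p = 0.000154) and Mkl2 at 0.50 ± 0.11 (adjusted p = 0.00371) above zero and Crem at -0.56 ± 0.08 (adjusted p = 0.00034) and Mapkapk2 at -0.32 ± 0.05 (adjusted p = 0.00101) below. In 4-week BPH/2J against BPN/3J, 14 were higher and 10 lower (31.8% and 22.7%, against 27.8% and 25.3% of all tested genes), led by Elk3 at 0.64 ± 0.07 (adjusted p = 1.97e-05), Nras at 0.40 ± 0.06 (adjusted p = 0.00027), Araf at -0.39 ± 0.05 (adjusted p = 6.42e-05) and Elk4 at -0.43 ± 0.06 (adjusted p = 0.000137). Leaving out 4-week replicate 1, an alternative chosen for all lists other than the members after the data were seen, gave 11 higher and 17 lower between the ages and 16 higher and 9 lower at 4 weeks. Of all tested genes, 23.8% were then higher and 23.6% lower between the ages, and 28.7% and 27% at 4 weeks.

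Other rapidly induced genes that are not members went the same way in 22-week BPH/2J as the members did. Of 53 tested, 1 was higher and 29 were lower than in BPN/3J (1.89% and 54.7%, against 19.8% and 18.2% of all tested genes), with a median of -0.58. Klf4, a shear-responsive factor of endothelium, was lower at -1.15 ± 0.07 (adjusted p = 2.08e-06) and Dusp8, a phosphatase of stress kinases, at -1.88 ± 0.13 (adjusted p = 2.8e-06), while Bcl3, an atypical IkappaB protein, was higher at 0.42 ± 0.10 (adjusted p = 0.00928). At 22 weeks against 4 weeks, 6 were higher and 16 lower (11.3% and 30.2%, against 19.9% and 21.1% of all tested genes), with a median of -0.21. These were led by Spry1 at 0.64 ± 0.08 (adjusted p = 0.000223), Kdm6b at 0.55 ± 0.08 (adjusted p = 0.000303), Dusp8 at -1.22 ± 0.13 (adjusted p = 5.58e-05) and Homer1 at -0.71 ± 0.11 (adjusted p = 0.000696). In 4-week BPH/2J against BPN/3J, 3 were higher and 27 lower (5.66% and 50.9%, against 27.8% and 25.3% of all tested genes), with a median of -0.41. Among them were Spry1, an inhibitor of receptor tyrosine kinase signalling, at -1.66 ± 0.08 (adjusted p = 2.63e-07), the histone demethylase Kdm6b at -1.30 ± 0.08 (adjusted p = 5.36e-07), Bcl3 at 0.79 ± 0.10 (adjusted p = 0.000113) and Rcan1, an inhibitor of calcineurin, at 0.33 ± 0.08 (adjusted p = 0.00539). Leaving out that replicate, 9 of 54 were higher and 17 lower between the ages. At 4 weeks 5 were then higher and 31 lower. Of all tested genes, 23.8% were higher and 23.6% lower between the ages in that fit, and 28.7% and 27% at 4 weeks.

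Stress and hormone lists, like the members, had more genes lower than higher against BPN/3J. With all libraries, their medians departed from that of the members between the ages. Median log2 differences at 22 weeks against 4 weeks were -0.62 for heat shock genes, 0.26 for glucocorticoid-responsive genes and -0.06 for the members. Without 4-week replicate 1 these medians were -0.76, 0.11 and 0.10 in the same order. The median of the glucocorticoid-responsive genes was then close to that of the members, and that of the heat shock genes was not. Relative to the 9-library mean, 4-week replicate 1 was lowest of its group for heat shock genes (-0.39, against 0.33 and 0.17). For the members it was highest (0.02, against -0.29 and -0.31). Over all tested genes, 18.2% were lower and 19.8% higher at 22 weeks, 25.3% and 27.8% at 4 weeks, and 21.1% and 19.9% at 22 weeks against 4 weeks. Of 20 heat shock genes, 16 were lower and 0 higher in 22-week BPH/2J than in BPN/3J (median -1.01), and at an unadjusted p under 0.05 19 were lower and 0 higher. DESeq2 and limma-voom both called 16 lower and 0 higher. Dnaja1, a co-chaperone of Hsp70, was at -1.49 ± 0.16 (adjusted p = 7.17e-05) and Bag3, its nucleotide exchange factor, at -1.26 ± 0.17 (adjusted p = 0.000244). At 22 weeks against 4 weeks 10 were lower and 0 higher (11 and 0 at an unadjusted p under 0.05, 10 and 0 in DESeq2 and limma-voom), with Hspa4 at -0.48 ± 0.08 (adjusted p = 0.000988) and Stip1 at -2.14 ± 0.40 (adjusted p = 0.00198). In 4-week BPH/2J against BPN/3J 10 were lower and 1 higher, with Bag3 at -1.33 ± 0.17 (adjusted p = 7.54e-05), Hspa1a at -1.17 ± 0.19 (adjusted p = 0.000403) and Hspa4 at 0.30 ± 0.08 (adjusted p = 0.00903). Of 19 glucocorticoid-responsive genes, 16 were lower and 0 higher in 22-week BPH/2J than in BPN/3J (median -1.06; 16 and 0 at an unadjusted p under 0.05, in DESeq2 and in limma-voom), led by Cdkn1a at -2.42 ± 0.10 (adjusted p = 7.77e-08) and Klf15 at -2.62 ± 0.13 (adjusted p = 2.91e-07). At 4 weeks 17 were lower and 0 higher (median -1.40; 17 and 0 at an unadjusted p under 0.05 and in limma-voom, 16 and 0 in DESeq2), led by Klf15 at -4.44 ± 0.15 (adjusted p = 1.25e-08) and Ddit4 at -2.50 ± 0.12 (adjusted p = 1.73e-07). At 22 weeks against 4 weeks 8 were higher and 3 lower, led by Klf15 at 1.82 ± 0.16 (adjusted p = 2.46e-05), Sult1a1 at 0.95 ± 0.10 (adjusted p = 4.97e-05), Cdkn1a at -1.03 ± 0.10 (adjusted p = 3.8e-05) and Fkbp5 at -1.06 ± 0.20 (adjusted p = 0.00212). In the fit without 4-week replicate 1, 12 heat shock genes were lower and 0 higher between the ages, and 9 lower and 5 higher at 4 weeks. Of the glucocorticoid-responsive genes, 8 were then higher and 5 lower between the ages, and 17 lower and 0 higher at 4 weeks. Of all tested genes, 23.8% were higher and 23.6% lower between the ages in that fit, and 28.7% and 27% at 4 weeks. The part of both lists in the results for the members was not tested.

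Markers of other cell types were present and some differed between the groups. Over all tested genes, 19.8% were higher and 18.2% lower at 22 weeks, 27.8% and 25.3% at 4 weeks, and 19.9% and 21.1% at 22 weeks against 4 weeks. Without 4-week replicate 1 the shares were 28.7% and 27% at 4 weeks and 23.8% and 23.6% between the ages. The summed level of 16 cardiomyocyte genes was 571 to 689 CPM in 22-week BPH/2J, 421 to 691 CPM in 4-week BPH/2J and 968 to 1188 CPM in BPN/3J. Of the 15 tested, 10 were lower and 0 higher in 22-week BPH/2J than in BPN/3J (10 and 0 at an unadjusted p under 0.05, in DESeq2 and in limma-voom). In 4-week BPH/2J, 13 were lower and 0 higher (14 and 0 by each of those 3 counts). At 22 weeks against 4 weeks 3 were higher and 0 lower (3 and 0 at an unadjusted p under 0.05 and in limma-voom, 2 and 0 in DESeq2). With 4-week replicate 1 left out, 14 of 16 were lower and 0 higher at 4 weeks, and 7 were higher and 0 lower between the ages. Each cardiomyocyte gene that passed against BPN/3J was lower in the BPH/2J group in which it passed. The summed level of 13 macrophage and monocyte genes was 229 to 267 CPM in 22-week BPH/2J, 439 to 842 CPM in 4-week BPH/2J and 385 to 661 CPM in BPN/3J. Of these, 9 were lower and 0 higher in 22-week BPH/2J than in BPN/3J (10 and 0 at an unadjusted p under 0.05, 9 and 0 in DESeq2 and limma-voom), and 10 were lower and 1 higher at 22 weeks against 4 weeks. In 4-week BPH/2J against BPN/3J, 1 macrophage gene was lower and 1 higher. The counts without 4-week replicate 1 were 1 lower and 5 higher, and 11 were lower and 1 higher between the ages. Of the 5 tested erythroid genes, 4 were lower in 22-week and 3 in 4-week BPH/2J than in BPN/3J. Between the ages 1 was lower in the 22-week group. All 6 erythroid genes measured, tested or not, summed to 103 to 136 CPM in 22-week BPH/2J, 74.8 to 147 CPM in 4-week BPH/2J and 158 to 200.5 CPM in BPN/3J. Of the 5 tested neutrophil genes, 4 were lower in 4-week BPH/2J than in BPN/3J and 3 were higher at 22 weeks than at 4 weeks. All 6 neutrophil genes measured, tested or not, summed to 8.27 to 12.3 CPM in 22-week BPH/2J, 4.44 to 4.86 CPM in 4-week BPH/2J and 10.1 to 14.1 CPM in BPN/3J. Of the 10 fibroblast genes, 3 were higher and 2 lower in 22-week BPH/2J (30% and 20%) and 5 higher and 3 lower in 4-week BPH/2J (50% and 30%) than in BPN/3J. Between the ages 2 were higher and 4 lower in the 22-week group. They summed to 543 to 620.4 CPM in 22-week BPH/2J, 619 to 931 CPM in 4-week BPH/2J and 585 to 667 CPM in BPN/3J. Of the 11 tested lymphocyte genes, 2 were higher and 1 lower in 22-week BPH/2J than in BPN/3J (18.2% and 9.09%), and 1 higher and 3 lower in 4-week BPH/2J (9.09% and 27.3%). Between the ages 7 were higher in the 22-week group. All 12 lymphocyte genes measured, tested or not, summed to 101 to 187 CPM in 22-week BPH/2J, 82.4 to 105 CPM in 4-week BPH/2J and 114 to 123 CPM in BPN/3J. Of the 11 pericyte and smooth muscle genes, 1 was higher and 1 lower in 22-week BPH/2J (9.09% each) and 3 higher and 1 lower in 4-week BPH/2J (27.3% and 9.09%) than in BPN/3J. Between the ages 2 were lower in the 22-week group. They summed to 1498 to 1791 CPM in 22-week BPH/2J, 1535 to 1914 CPM in 4-week BPH/2J and 1298 to 1527 CPM in BPN/3J. For the remaining lists, leaving out 4-week replicate 1 gave counts at 4 weeks of 4 lower for erythroid and for neutrophil genes, 5 higher and 5 lower for fibroblast, 1 higher and 5 lower for lymphocyte and 2 higher and 1 lower for pericyte and smooth muscle genes. Between the ages they were then 1 lower for erythroid, 2 higher for neutrophil, 4 higher and 4 lower for fibroblast, 10 higher for lymphocyte and 2 lower for pericyte and smooth muscle genes. Apart from 1 cardiomyocyte gene in 1 BPN/3J library and 1 erythroid gene in each of 3 libraries, no measured marker, tested or not, was at 0 counts. The part of these cell types in the results for the members was not tested.

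**Figure D5:**
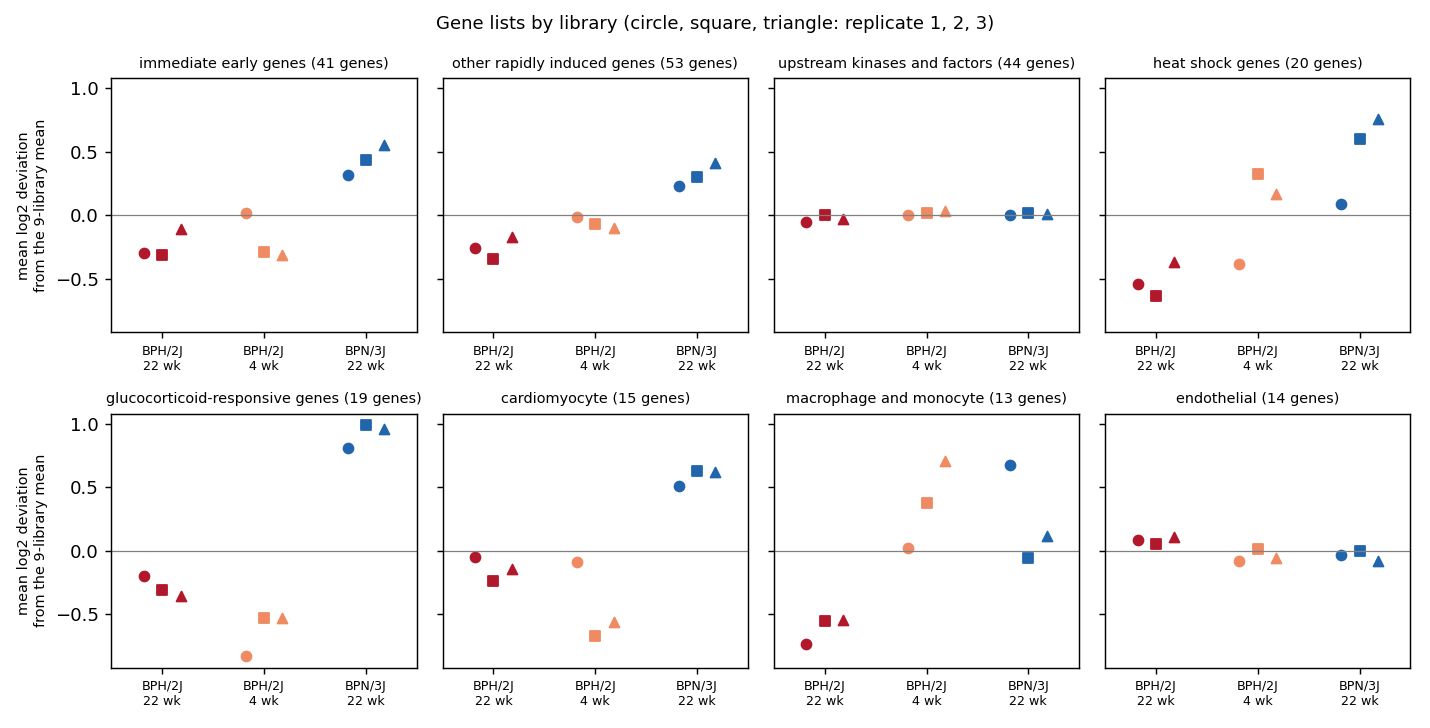
Mean over each list of the log2 CPM of its genes minus their mean over all 9 libraries, for 8 lists; each symbol is a library, with groups from left to right 22-week BPH/2J, 4-week BPH/2J and BPN/3J. For the immediate early genes it runs from -0.31 to -0.11 in 22-week BPH/2J, -0.31 to 0.02 in 4-week BPH/2J and 0.31 to 0.55 in BPN/3J, and the upstream kinases stay close to zero in every group.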

How the data were processed

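RNA was measured in 9 endothelial libraries from mouse hearts. Cells were bound to Miltenyi microbeads and collected on an autoMACS instrument, and polyA RNA was copied with random hexamers and sequenced as single reads, per the labels' protocols. The submitters' processing notes list the build mm9 and, without roles or settings, TopHat2 2.0.13, Bowtie2, edgeR, featureCounts from Subread, CASAVA 1.8.2 and FastQC. The sources used here do not state strandedness. The authors deposited raw counts per gene with gene lengths, their own CPM values, log2 fold changes and p-values with false discovery rates. The authors' log2 fold changes and false discovery rates served for comparison only, and their direction was turned to that used here. Every gene listed had at least 10 counts in total.

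Counts of 18094 genes were filtered with filterByExpr to 15277, scaled by TMM and fitted in edgeR 4.0.16 (R 4.3.3) with all 9 libraries in a single quasi-likelihood fit on group. Two-sided F tests were adjusted by Benjamini-Hochberg over all tested genes, with a threshold of 0.05. Simulated counts with 200 altered genes served to test the code. Log2 levels used a prior count of 1. A floor of 3 counts corresponds to 0.0921 to 0.105 CPM and covers counting error only, since reads carry no molecular identifiers. The members, lists, tests and roles were chosen with earlier results of these data known. By the rule for named genes, members called in a comparison or at 100 CPM or more in a group mean have every value given, and other lists give the 2 called genes of lowest adjusted p per direction; markers of other cell types are given as counts and sums. Gene structures and 3′UTR sites came from GENCODE M21 (GRCm38) and promoters from RefSeq (GRCm38.p6), matched by identifier and symbol; the counts rest on mm9, so no coordinates were taken between builds. Figures were drawn with matplotlib 3.10.9 in Python 3.11.15. Alternatives were RLE and upper-quartile scaling, no filter, a filter of 1 CPM in 3 libraries, DESeq2 1.42.0, limma-voom (limma 3.58.1), fits on the 2 groups compared alone, replicate number as a blocking term, and leaving out each library. For the other lists, leaving out 4-week replicate 1 was added after the data were seen.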

Additional observations from a re-analysis of the deposited data

How the results depend on the processing

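Under 17 alternatives, 22 of the 28 members lower in 22-week BPH/2J than in BPN/3J kept their call, as did 4 of the 8 called at 22 weeks against 4 weeks and 25 of the 29 called in 4-week BPH/2J against BPN/3J. No called member changed direction, and the 58 sign changes among 2091 values belonged to members with a log2 difference of 0.29 or less in size. Leaving out each library in turn gave 22 to 34 members lower and 0 to 0 higher in 22-week BPH/2J against BPN/3J (4362 to 7117 genes called in all). It gave 3 to 5 lower and 1 to 10 higher at 22 weeks against 4 weeks (4606 to 7383 genes), and 24 to 34 lower and 1 to 2 higher in 4-week BPH/2J against BPN/3J (6968 to 8682 genes). The log2 difference of Gadd45b at 22 weeks against 4 weeks, uncalled at -0.04, ran from -0.23 to 0.45 in these fits and was called at 0.45 without 4-week replicate 1. The cause was not tested. Equal replicate numbers did not pair the libraries: correlations of same-numbered residuals ran from -0.16 to 0.07, and at most 2 of 6 libraries of a comparison correlated best with their own number. With the replicate block, 27 members were lower and 0 higher in 22-week BPH/2J against BPN/3J, where Egr3 lost its call (adjusted p = 0.0641). It gave 5 lower and 3 higher at 22 weeks against 4 weeks, and 28 lower and 2 higher in 4-week BPH/2J against BPN/3J, where Myc was the added gene (adjusted p = 0.046). Outside the block and left-out libraries, Egr3 lost its call at 22 weeks under upper-quartile scaling (0.0503), and Dusp6 lost its call between the ages in limma-voom (0.0521) and in the fit on only those groups (0.0601). Calls were gained at 22 weeks by Junb, Ier5, Socs3 and Pim1 in DESeq2 (0.0215 to 0.0465) and by Junb, Ier5, Dusp5, Gadd45b and Pim1 in the fit on the 2 groups alone (0.00226 to 0.0421). Between the ages Rhob gained a call under upper-quartile scaling (0.0439). At 4 weeks Ier2 gained one under RLE scaling (0.0499), with the filter of 1 CPM in 3 libraries (0.0476) and in DESeq2 (0.0376).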
